A study of Homo sapiens with 2 samples.

Results

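The genes described here are 37 genes of the aminoacyl-tRNA synthetase family, taken by name from a list of 19 cytosolic synthetase genes, 16 mitochondrial synthetase genes and 2 scaffold genes, out of 58735 genes counted. Each of the 37 names matched 1 Ensembl identifier in GENCODE release 44, and each identifier was present in the counts of both libraries. The list is not every gene of the family. The RNA came from MCF10a-Snail-ER cells, a human mammary epithelial line that stably carries the repressor Snail fused to the estrogen receptor, and both libraries came from cells kept in 100 nM tamoxifen for 1 day, which sets off the change from epithelial to mesenchymal state. One library was made with the Oxford Nanopore direct RNA kit, which reads native polyadenylated strands without amplification. The other was an Illumina TruSeq stranded mRNA library, made from fragmented RNA that is copied into cDNA and amplified. With 1 library per platform, and untreated and parental cells not analysed here, the comparison made was between the 2 platforms on RNA that the series calls matched. No value has a replicate, so tests and intervals speak of counting error alone.

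Aminoacyl-tRNA synthetases join each amino acid to its tRNAs, the step at which the genetic code is read into chemistry. Cytosolic enzymes supply the ribosomes of the cytoplasm, and a separate set of nuclear genes supplies the ribosomes inside mitochondria. Several cytosolic enzymes sit together in the multi-tRNA synthetase complex, held by the scaffold proteins AIMP1 and AIMP2. GARS1 and KARS1 each encode both the cytosolic and the mitochondrial form of their enzyme. Many cytosolic synthetase genes are known targets of ATF4, the transcription factor of the amino acid response, which acts through a C/EBP-ATF response element.

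That element has the core TGATGNAA, and it is shown here because it is a feature that several of these genes share at their start sites. RefSeq start-site windows of 300 bases, 250 before to 50 after the start on GRCh38.p14, were found for 32 of the 37 genes, with 44 windows in all. AARS2, LARS1, VARS1, VARS2 and YARS1 had no entry. The core, searched on both strands with N as any base, was present in 8 of the 44 windows (18.2%) and in 3.62% of all 35116 windows of the same length. The 8 windows belonged to 7 cytosolic genes and 1 mitochondrial gene, YARS2, and 6 of the 8 matches read TGATGCAA. Each stretch below is written 5′ to 3′ on the strand that carries the core, with the core in capitals.
AARS1: ctaacttggcTGATGCAActgcgagaaa
CARS1: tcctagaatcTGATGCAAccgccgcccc
GARS1: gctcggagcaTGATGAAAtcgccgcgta
IARS1: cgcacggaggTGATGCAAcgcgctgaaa
MARS1: aatccctcgcTGATGCAAccggaaccgg
NARS1: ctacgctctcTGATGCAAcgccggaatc
TARS1: ctggaccagcTGATGCAAtcgaaaggcg
YARS2: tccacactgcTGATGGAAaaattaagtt

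The stretches lie at chr16:70289676-70289703 for AARS1, chr11:3057408-3057435 for CARS1 and chr9:92293693-92293720 for IARS1, all on the plus strand. The others are on the minus strand, at chr7:30594835-30594862 for GARS1, chr12:57488054-57488081 for MARS1, chr18:57621805-57621832 for NARS1, chr5:33440957-33440984 for TARS1 and chr12:32756077-32756104 for YARS2. In 5 genes, CARS1, IARS1, MARS1, NARS1 and TARS1, the core began within 14 bases of the RefSeq start site. It lay 33 bases upstream of the RefSeq start site in GARS1, 187 in AARS1 and 197 in YARS2. These RefSeq starts need not match the outer ends of the GENCODE gene spans used elsewhere here. The stretches of AARS1 and GARS1 lie inside their GENCODE spans, chr16:70251983-70289707 and chr7:30580533-30634033. A match of these letters is a description of the sequence and was not set against binding data.

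Markers of cell type were looked at in both libraries, and they do not address Snail or tamoxifen. The 7 basal mammary genes reported, KRT5, KRT14, KRT17, KRT6A, TP63, ITGB4 and LAMB3, all had counts in both libraries, with a summed level of 3618 counts per 1000000 counts (CPM) by Nanopore and 3270 CPM by Illumina. KRT5 alone made up 1686 CPM of the Nanopore sum. TP63 had 5 Nanopore counts (12.4 CPM) and 33.2 CPM by Illumina, lower in both libraries than the leukocyte marker CD68. Of 12 markers of leukocytes, endothelium, red cells and fibroblasts, 2 had Nanopore counts, CD68 with 13 and COL1A2 with 1, and the other 10, PTPRC, PECAM1 and HBB among them, had 0 Nanopore counts. By Illumina 9 of the 12 had counts, with PECAM1 at 5.07 CPM and COL1A1 at 4.93 CPM, both under the Nanopore limit of 3 counts, while CD3E, HBB and HBA1 were at 0. These 12 summed to 34.7 CPM by Nanopore and 56.2 CPM by Illumina, where CD68 made up 45.1 CPM. Total counts were 403235 for Nanopore and 191741714 for Illumina, so that 1 count stood for 2.48 CPM by Nanopore and 0.00522 CPM by Illumina. At 3 counts, taken as the smallest amount the depth can show, the limits were 7.44 CPM and 0.0156 CPM.

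All 37 genes were detected by both platforms. Nanopore counts ran from 1 (PARS2 and VARS2) to 80 (IARS2) with a median of 20, and Illumina counts ran from 1114 (PARS2) to 80538 (IARS2) with a median of 14978. By Nanopore, 34 of the genes had at least 3 counts, 23 had at least 10 and 4 had at least 50. The precision of what follows is therefore set by the Nanopore library: for a gene with 20 counts, such as CARS2, the 95% Clopper-Pearson interval of its level was 30.3 to 76.6 CPM.

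Levels were compared between genes per length. A direct RNA read stands for 1 RNA strand, so Nanopore CPM was used as it is. An Illumina count grows with the length of the transcript, so Illumina counts were divided by the length of the canonical transcript and scaled to a sum of 1000000 (TPM). In bulk RNA, fewer cells with a transcript and less of it per cell cannot be told apart. Across the 37 genes, Nanopore CPM and Illumina TPM gave a Spearman's rho of 0.863. Within the 21 cytosolic and scaffold genes it was 0.793, and within the 16 mitochondrial genes 0.610. These values are across genes of the same libraries and describe how alike the orders were.

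**Figure D1:**
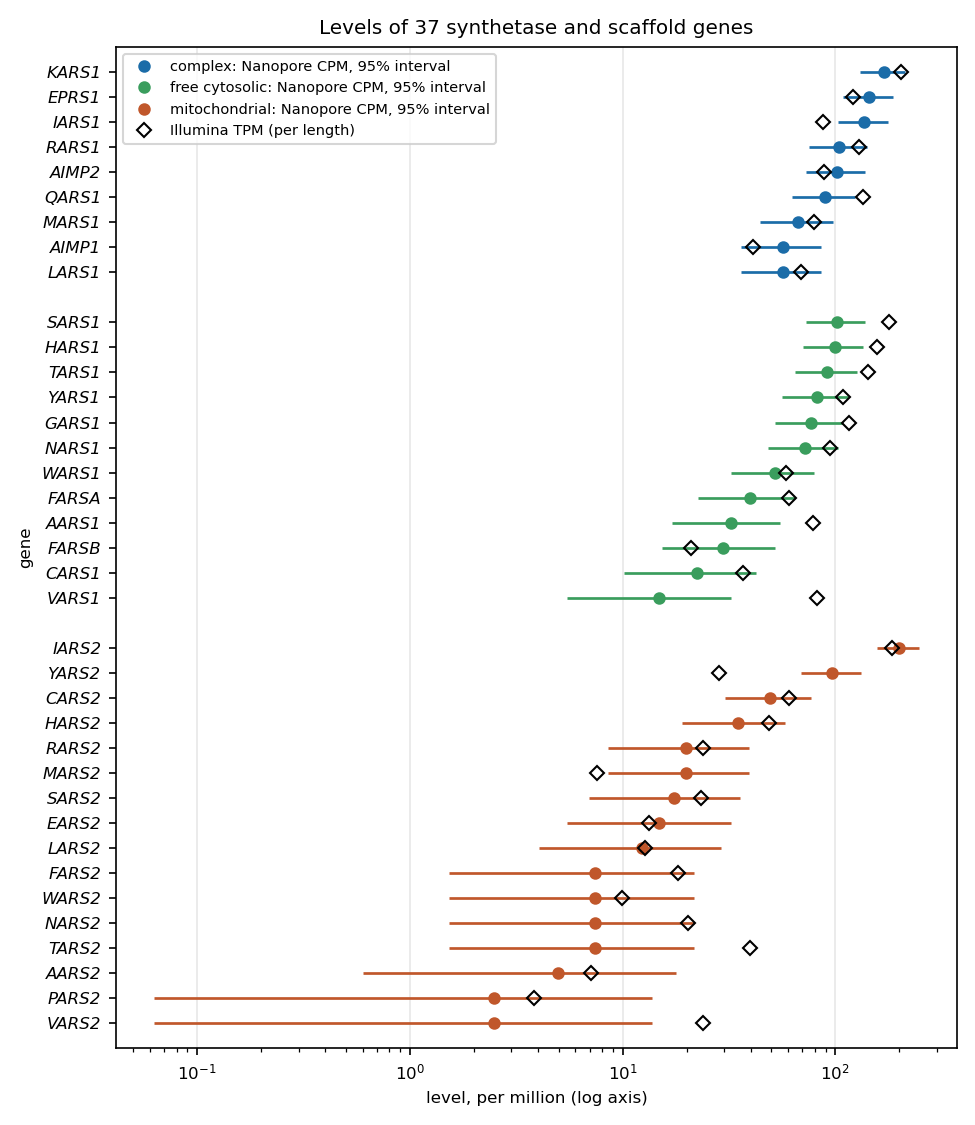
Level of each of the 37 genes in CPM or TPM on a log axis. Filled points are Nanopore CPM with 95% Clopper-Pearson intervals, coloured by group, where the group named complex includes the scaffold genes AIMP1 and AIMP2, and open diamonds are Illumina TPM by canonical transcript length. IARS2 at 198 CPM and KARS1 at 169 CPM lead by Nanopore, and 12 of the 16 mitochondrial genes lie under 20 CPM.

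The mitochondrial isoleucyl enzyme gene IARS2 (chr1:220094132-220148041, hg38, 23 exons) led the family by Nanopore, with 80 counts and 198 CPM (95% interval 157 to 247), and was second by Illumina at 184 TPM. KARS1, the lysyl enzyme gene that serves both compartments (chr16:75627474-75648643, 14 exons), was second by Nanopore with 68 counts and 169 CPM (131 to 214) and first by Illumina at 203 TPM. The 2 genes were not distinguishable by Nanopore, since each value lay inside the other's interval. EPRS1, which encodes the joined glutamyl and prolyl enzymes, followed with 58 Nanopore counts, 144 CPM (109 to 186) and 121 TPM. IARS1, the cytosolic isoleucyl enzyme gene, had 55 Nanopore counts, 136 CPM (103 to 178) and 87.9 TPM. RARS1, SARS1, AIMP2, HARS1, YARS2, TARS1 and QARS1 came next with 36 to 42 Nanopore counts, a span in which every interval overlapped every other. By Illumina with canonical length the first 5 were KARS1, IARS2, SARS1 (179 TPM), HARS1 (157 TPM) and TARS1 (142 TPM). This order turned with the length used. With union exonic length, the merged exons of all transcripts, IARS2 was at 275 TPM, EPRS1 at 194 TPM and KARS1 at 174 TPM. With mean transcript length IARS2 was at 388 TPM and KARS1 at 284 TPM.

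The 9 genes of the multi-tRNA synthetase complex stood between 57.0 and 169 CPM by Nanopore, with a median of 102 CPM, and between 41.1 and 203 TPM by Illumina, with a median of 88.8 TPM. KARS1 was the highest of the 9 by Nanopore and, with canonical length, by Illumina. With union exonic length EPRS1 was above it by Illumina, at 194 against 174 TPM. The scaffold gene AIMP1 (23 Nanopore counts, 57.0 CPM) and the leucyl enzyme gene LARS1 (23 counts, 57.0 CPM), whose product also senses leucine for mTORC1, were the lowest by Nanopore, and AIMP1 was the lowest by Illumina at 41.1 TPM. RARS1, the arginyl enzyme gene, had 42 Nanopore counts and 129 TPM, and the other scaffold gene, AIMP2, had 41 counts and 88.8 TPM. QARS1, the glutaminyl enzyme gene, had 36 counts and 136 TPM, and MARS1, the methionyl enzyme gene, had 27 counts and 79.8 TPM.

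The 12 cytosolic genes outside the complex spanned 14.9 to 102 CPM by Nanopore and 21.0 to 179 TPM by Illumina. SARS1, the seryl enzyme gene, was first in this group with 41 Nanopore counts and with 179 TPM by canonical length. HARS1 (histidyl, 40 counts), TARS1 (threonyl, 37 counts), YARS1 (tyrosyl, 33 counts) and GARS1 (glycyl, 31 counts) followed by Nanopore in the same order as by Illumina except for the last pair, where GARS1 had 116 TPM and YARS1 109 TPM. SARS1 and HARS1 were not distinguishable by Nanopore, at 102 CPM (73.0 to 138) and 99.2 CPM (70.9 to 135). Other lengths changed the Illumina order. With union exonic length TARS1 was at 155.9 TPM, SARS1 at 155.2 TPM and HARS1 at 37.9 TPM. With mean transcript length VARS1 was highest at 271 TPM and SARS1 was at 206 TPM. NARS1, the asparaginyl enzyme gene, had 29 counts and 94.9 TPM, and WARS1, the interferon-inducible tryptophanyl enzyme gene, had 21 counts and 58.4 TPM. The lowest by Nanopore was VARS1, the valyl enzyme gene, with 6 counts and 81.7 TPM, which is described further on. FARSA and FARSB encode the 2 kinds of subunit of the phenylalanyl enzyme. FARSA had 16 Nanopore counts (39.7 CPM, 22.7 to 64.4) and FARSB 12 (29.8 CPM, 15.4 to 52.0), values within each other's interval. By Illumina they were at 60.9 and 21.0 TPM, and at 79.2 and 36.7 TPM with union exonic length, where the length of FARSB was 6761 bases in either case.

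The mitochondrial genes were lower as a group. Their median was 13.6 CPM by Nanopore and 21.9 TPM by Illumina, against 76.9 CPM and 94.9 TPM for the 19 cytosolic synthetase genes. The log2 difference of the medians was 2.49 by Nanopore and 2.11 by Illumina. Over the genes without a body overlap, the Illumina difference was 3.17, with only 2 mitochondrial genes, PARS2 and RARS2, left in it. Of the 203 Nanopore counts of the 16 genes, 80 were of IARS2, as were 184 of their 527 TPM. Without IARS2 and YARS2, the other 14 genes ran from 1 to 20 Nanopore counts with a median of 4, and from 3.82 to 60.5 TPM. PARS2, the prolyl enzyme gene, had 1 count (2.48 CPM, 0.0628 to 13.8) and was lowest by Illumina at 3.82 TPM.

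Mitochondrial and cytosolic enzymes for the same amino acid were set side by side in 17 pairs, in which EPRS1 and FARS2 each occur in 2. The cytosolic gene was higher in 14 pairs by Nanopore and in 15 by Illumina per length. By Nanopore the interval of the ratio lay above 1 in 13 pairs, below 1 in 1, and held 1 in 3. RARS1 exceeded RARS2 by 5.25-fold by Nanopore (42 against 8 counts, 95% interval 2.43 to 12.9) and by 5.39-fold by Illumina. SARS1 exceeded SARS2 by 5.86-fold (41 against 7 counts, 2.60 to 15.5) and by 7.61-fold, and HARS1 exceeded HARS2 by 2.86-fold (40 against 14 counts, 1.52 to 5.69) and by 3.21-fold. In these 3 pairs the Illumina value by canonical length lay inside the Nanopore interval. With other lengths it did not for all of them: RARS1 to RARS2 by Illumina was 26.3-fold with union exonic length and 13.9-fold with mean transcript length.

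The isoleucyl pair ran the other way in both libraries. IARS2 had 80 Nanopore counts against 55 of IARS1, a ratio of 1.45 (1.02 to 2.09), and by Illumina IARS2 was 2.10-fold higher per length, just outside that interval. The Illumina ratio of IARS1 to IARS2 moved from 0.477 by canonical length to 0.112 with union exonic length and 0.186 with mean transcript length, against 0.688 (0.479 to 0.981) by Nanopore. CARS2, the mitochondrial cysteinyl gene, had 20 counts against 9 of CARS1, a ratio of 2.22 (0.967 to 5.54) whose interval held 1, and was 1.64-fold higher by Illumina. The tyrosyl pair differed between the libraries: YARS2 had 39 Nanopore counts against 33 of YARS1 (ratio 1.18, 0.724 to 1.94), while by Illumina YARS1 was 3.83-fold higher, a value outside the Nanopore interval. With union exonic length the Illumina ratio of YARS1 to YARS2 was 0.971, and those of CARS1 to CARS2 and HARS1 to HARS2 were 0.947 and 0.666, so the order of the histidyl pair by Illumina also turned with the length used. By canonical length, the Illumina ratio lay outside the Nanopore interval in 4 of the 17 pairs, the other 2 being MARS1 to MARS2 (3.38-fold by Nanopore, 1.49 to 8.60, and 10.5-fold by Illumina) and TARS1 to TARS2 (12.3-fold, 3.91 to 62.5, and 3.6-fold). These intervals take the Illumina value and the transcript lengths as exact, and no test of the difference between the libraries was run.

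**Figure D2:**
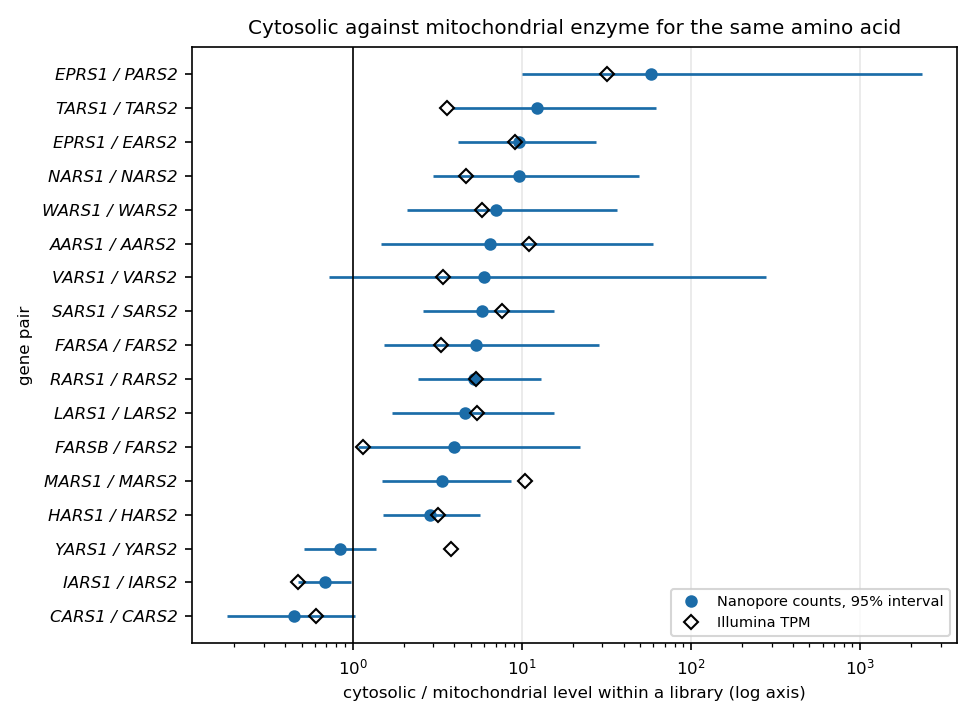
Ratio of the cytosolic to the mitochondrial gene for the same amino acid within each library, on a log axis. Filled points are ratios of Nanopore counts with 95% Clopper-Pearson intervals and open diamonds are ratios of Illumina TPM. The ratios of IARS1 to IARS2 and of CARS1 to CARS2 are below 1 in both libraries, and that of YARS1 to YARS2 is 0.846 by Nanopore and 3.83 by Illumina.

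The platforms were then compared gene by gene. Of the 37 genes, 36 had a mean of at least 5 CPM over the 2 libraries and were tested together with all 12414 such genes, which left out PARS2. After adding 1 to each CPM value, the Nanopore level was divided by the Illumina level and put on the log2 scale, and a gene was called when the ratio was at least 2-fold in either direction. Of the 36, 23 were called higher by Illumina, where 30.2% of all genes tested and 33.8% of protein-coding genes tested were. Only YARS2 was called higher by Nanopore, where 19.2% of all and 10.1% of protein-coding genes were. The median log2 ratio of the 36 was −1.16 (quartiles −1.54 to −0.81), against −0.42 for all genes tested and −0.58 for the 10498 protein-coding ones. A two-sided exact conditional binomial test on the counts, with Benjamini-Hochberg adjustment over all 12414 genes, gave an adjusted p below the threshold of 0.05 for 27 members higher by Illumina (27.2% of all genes tested) and 2 higher by Nanopore (20.2%). The members closest to the 2-fold line were YARS1 at −1.06, just past it and called, and HARS1 at −0.99, just short of it and not called. HARS1 had 99.2 CPM by Nanopore and 198 CPM by Illumina.

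**Figure D3:**
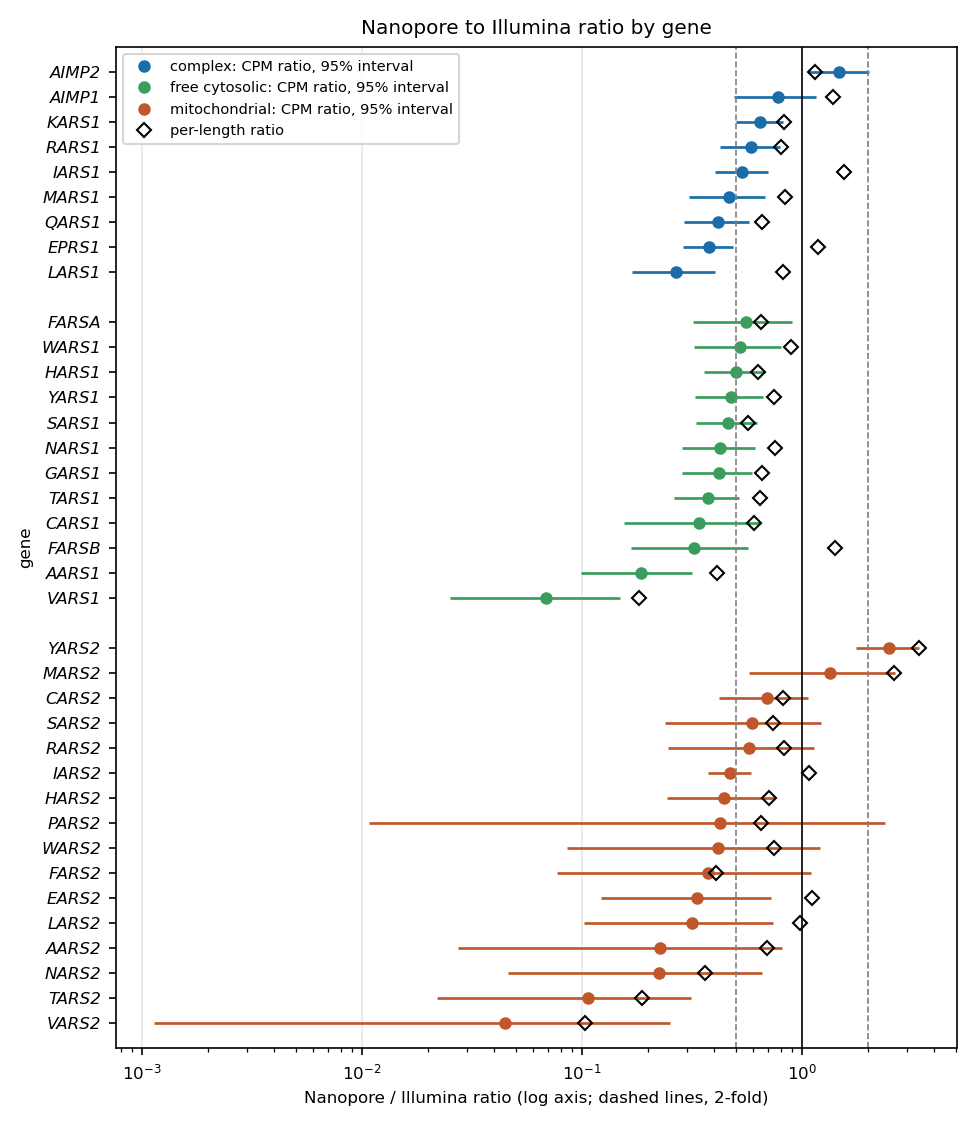
Nanopore to Illumina ratio of each of the 37 genes on a log axis. Filled points are CPM ratios with 95% Clopper-Pearson intervals, coloured by group, open diamonds are ratios per transcript length, and dashed lines mark 2-fold. The interval lies above 1 for YARS2 and AIMP2, and VARS2, VARS1, TARS2 and AARS1 have the lowest CPM ratios.

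Among the complex genes, 4 of 9 were called higher by Illumina, among the free cytosolic genes 9 of 12, and among the mitochondrial genes 10 of the 15 tested. LARS1 was the lowest of the complex, at 57.0 CPM by Nanopore and 213 CPM by Illumina, which is 3.74-fold higher by Illumina (95% interval 2.49 to 5.89). EPRS1 was 2.65-fold higher by Illumina (2.05 to 3.48), and KARS1 1.54-fold (1.22 to 1.99). The scaffold genes stood at the other end of the complex. AIMP1 was at 57.0 CPM by Nanopore and 73.5 CPM by Illumina, a ratio of 1.29 in favour of Illumina whose interval held 1 (0.858 to 2.03).

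AIMP2 was at 102 CPM by Nanopore (41 counts) and 68.7 CPM by Illumina (13165 counts), which is 1.48-fold higher by Nanopore (1.06 to 2.01). Its exact binomial adjusted p (Benjamini-Hochberg) was 0.0455, and it ranged from 0.0144 with median-ratio scaling to 0.183 with no filter on low genes. AIMP2 has the shortest canonical transcript of the 37, at 1198 bases. Of the runs of 50 bases in it, 42.1% also occur in reverse complement in EIF2AK1, the heme-regulated kinase gene of the integrated stress response. EIF2AK1 had 60 Nanopore and 35882 Illumina counts.

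Part of the order followed transcript length. Across the 36 genes the CPM ratio and canonical length had a Spearman's rho of −0.579, where it was −0.478 over all genes tested with a length and −0.374 over the protein-coding ones. The order of members and all genes turned with the length used: rho was −0.344 for the members and −0.438 for all genes with union exonic length, and −0.258 and −0.392 with mean transcript length. The 15 members under 2500 bases had a median log2 ratio of −0.83 and the 21 members of 2500 bases or more −1.51. Dividing the Illumina counts by length turned the sign of rho for the members to 0.244, a value in which length enters both sides. Per length, their median log2 ratio was −0.39, with 27 of them below 0, against 0.48 for all genes tested and 0.37 for the protein-coding ones. Per length, 6 members were at least 2-fold higher by Illumina (11.1% of all genes tested) and 2 at least 2-fold higher by Nanopore (34.8%). The 6 were VARS2, VARS1, TARS2, NARS2, AARS1 and FARS2, and the 2 were YARS2 and MARS2. NARS2 and FARS2 had 3 Nanopore counts each. The intervals of their per-length ratios of Nanopore to Illumina held 1 (0.0752 to 1.07 for NARS2 and 0.0837 to 1.19 for FARS2). With union exonic length the per-length calls were 4 and 7, and with mean transcript length 14 and 2, with Illumina first in each case. With union exonic length the 4 were VARS2, VARS1, TARS2 and AARS2. The 7 were IARS1, RARS2, GARS1, CARS2, AIMP1, HARS1 and LARS1, so neither YARS2 nor MARS2 was among them. No test was run on the per-length ratio.

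**Figure D4:**
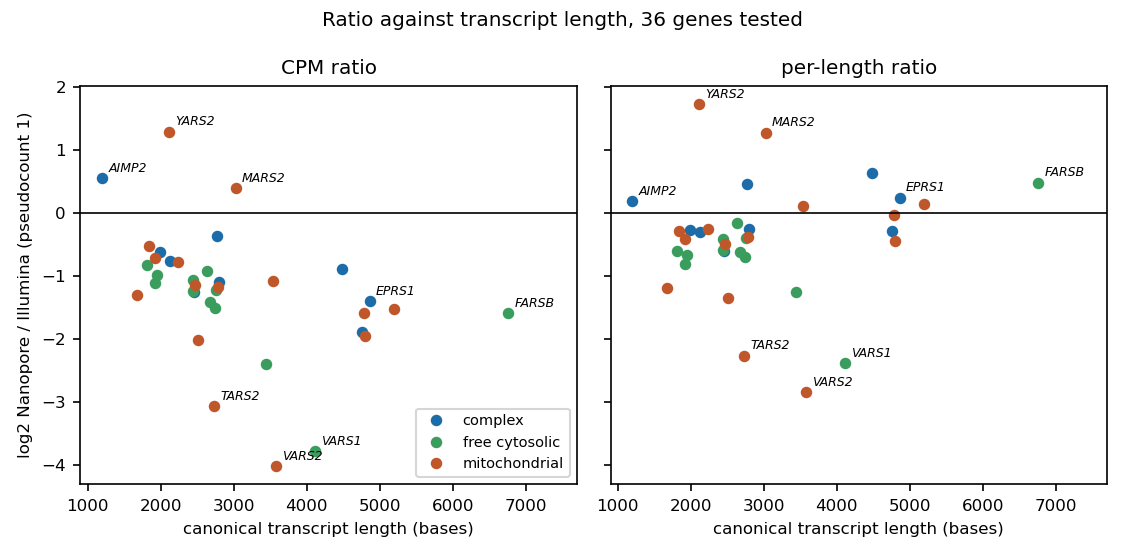
Log2 ratio of Nanopore to Illumina, with a pseudocount of 1, against canonical transcript length for the 36 genes tested, for the CPM ratio on the left and the per-length ratio on the right. In the CPM ratio AIMP2, MARS2 and YARS2 are the genes above 0. VARS1, VARS2 and TARS2 are the lowest points in either panel.

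The 2 valyl genes were lowest in the CPM ratio with TARS2, and both lie in the major histocompatibility region of chromosome 6. VARS1 (chr6:31777518-31795752, 30 exons) had 6 Nanopore counts and 41534 Illumina counts. It stood at 14.9 CPM (5.46 to 32.4) by Nanopore and 217 CPM by Illumina, which is 14.6-fold higher by Illumina (6.69 to 39.7; exact binomial adjusted p, Benjamini-Hochberg, 3.17e-28). VARS2 (chr6:30914205-30926459, 30 exons) had 1 Nanopore and 10582 Illumina counts, a ratio of 22.3 in favour of Illumina with an interval of 3.99 to 879. Per length the folds were 5.49 (2.52 to 15.0) for VARS1 and 9.65 (1.73 to 381) for VARS2. With mean transcript length the per-length log2 ratio of VARS1 was −4.10 instead of −2.38. The transcripts of both genes aligned to 5 alternate contigs of chromosome 6 in hg38, at no less than 80% of their length and no more than 5% divergence. CARS1, with 1 such contig of chromosome 11, was the only other member with a copy of this kind, and 2.62% of all genes tested had one. VARS2 also shares 97.3% of its 50-base words, the runs of 50 letters in its canonical transcript, with ENSG00000288473, a lncRNA gene on the same strand. That lncRNA gene was not among the 58735 genes counted. CARS1 had 9 Nanopore and 12519 Illumina counts, 2.93-fold higher by Illumina (1.54 to 6.40). Whether these copies took part in the low Nanopore counts was not tested. Without these 3 genes, 20 of the 33 others were called higher by Illumina, with a median log2 ratio of −1.11.

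TARS2 and AARS1, the next lowest after the valyl genes, had no such copy. TARS2, the mitochondrial threonyl gene (chr1:150487414-150507602, 18 exons), had 3 counts by Nanopore, or 7.44 CPM (1.53 to 21.7), and 69.5 CPM by Illumina, a ratio of 9.35 in favour of Illumina (3.20 to 45.3; exact binomial adjusted p, Benjamini-Hochberg, 3.65e-08). AARS1, the cytosolic alanyl gene (chr16:70251983-70289707, 21 exons), had 13 counts by Nanopore, or 32.2 CPM (17.2 to 55.1), and 174 CPM by Illumina, 5.39-fold higher by Illumina (3.15 to 10.1; exact binomial adjusted p, Benjamini-Hochberg, 1.73e-15). Per length the folds were 5.31 (1.82 to 25.8) for TARS2 and 2.43 (1.42 to 4.56) for AARS1. With union exonic length the per-length log2 ratio of AARS1 was −0.50 instead of −1.25, inside the 2-fold line, and with mean transcript length that of TARS2 was −3.03 instead of −2.26. Of the 50-base words of TARS2, 2.84% occur as written in transcripts of other genes and 2.58% in reverse complement, wherever in the genome those genes lie.

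YARS2, the mitochondrial tyrosyl gene (chr12:32727490-32755897, 5 exons), stood apart on the other side. It had 39 Nanopore counts (96.7 CPM, 68.8 to 132) and 7462 Illumina counts (38.9 CPM), 2.49-fold higher by Nanopore (1.77 to 3.40; exact binomial adjusted p, Benjamini-Hochberg, 5.55e-06). Per length the ratio was 3.39 (2.41 to 4.65), and with union exonic length the per-length log2 ratio was 0.96 instead of 1.73, under the 2-fold line. The body of YARS2 shares 18161 bases with DNM1L on the opposite strand but no exonic base. DNM1L had 26 counts by Nanopore and 22329 by Illumina. Of the 50-base words of YARS2, 16.5% occur on the opposite strand in other genes, nearly all in a lncRNA gene, ENSG00000286950. That lncRNA gene was not among the 58735 genes counted. MARS2, a gene of 1 exon, had 8 Nanopore counts and 2845 Illumina counts, a ratio of 1.34 with an interval of 0.577 to 2.64. A lncRNA gene that contains it on the same strand, ENSG00000222017, also had 8 Nanopore counts and had none by Illumina.

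Members were also set beside genes that share exonic bases with them on the opposite strand. Exons of 24 of the 37 genes (64.9%) share at least 1 base with another gene, against 60.0% of all genes tested. There were 23 pairs of a member and an opposite-strand partner with shared exonic bases and counts for both, and 22 of the partners had Nanopore counts. In 14 of the 23 the partner was higher in CPM by Nanopore than by Illumina, by any margin, as were 4571 of the 12414 genes tested, and several of these partners had only 3 or 4 Nanopore counts. The 2 shares are not like for like, since the 12414 genes had a mean of at least 5 CPM and the partners had no such filter. TMEM151B and ENSG00000272442, which overlap each other opposite AARS2, entered as separate pairs with 4 Nanopore counts each. ENSG00000258666, a lncRNA gene opposite WARS1, had 20 Nanopore counts beside 21 of WARS1 and 36 Illumina counts beside 19079. ENSG00000251556, a lncRNA gene opposite LARS1 with 42 exonic bases in common, had 21 beside 23 by Nanopore and 14 beside 40853 by Illumina. In both pairs the lncRNA gene and the synthetase gene had nearly the same Nanopore count, while nearly all Illumina counts were of the synthetase gene.

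The same was seen for DDIT3, the stress-response transcription factor CHOP, whose tail overlaps the tail of MARS1 over 355 exonic bases. DDIT3 had 23 Nanopore counts beside 27 of MARS1, and 1042 Illumina counts beside 27604. Its level was 57.0 CPM by Nanopore and 5.43 CPM by Illumina, 10.5-fold higher by Nanopore (6.62 to 15.8). ARHGAP9, on the other side of MARS1, had 8 counts in each library. WDR55 lies opposite HARS1 over 1090 exonic bases and had 40 Nanopore counts, the same number as HARS1, with 14987 Illumina counts beside 37946. For all of these the strand and the treatment of reads over 2 genes in counting were not stated, so reads of a member and its partner cannot be told apart. The members without exonic overlap had nearly the same median ratio: −1.17 for 12 genes tested, against −1.16 for the 24 with overlap.

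**Figure D5:**
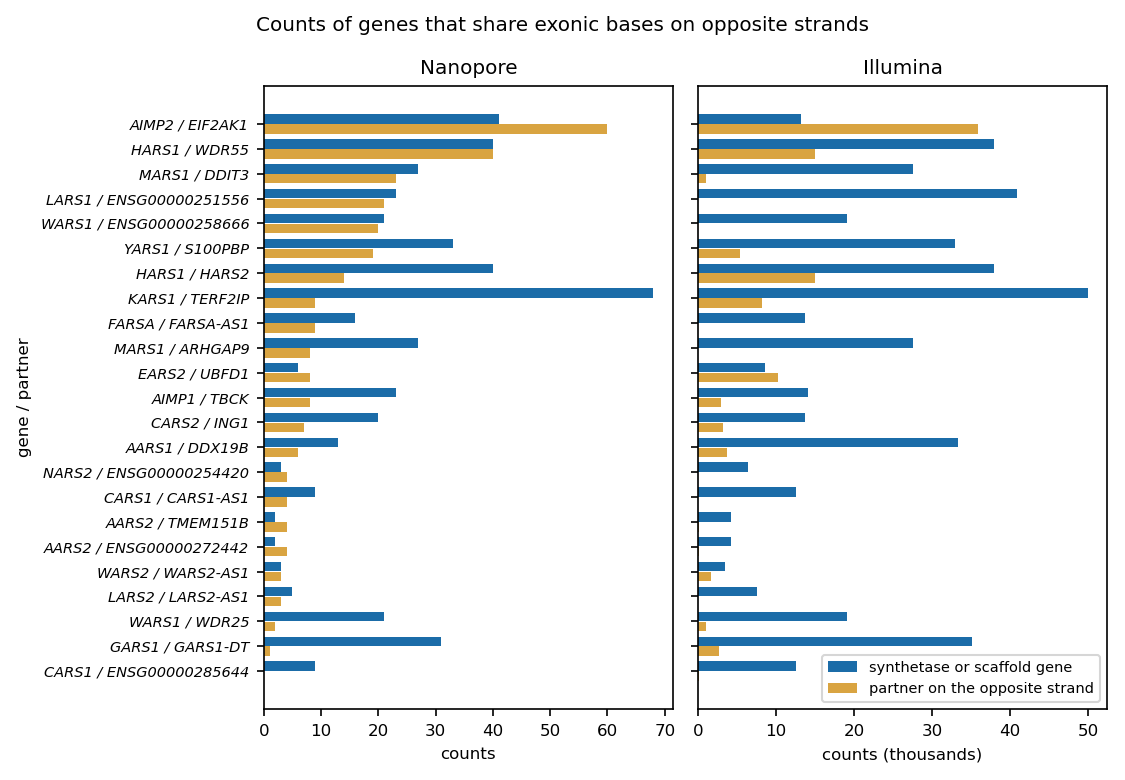
Counts of 23 pairs of a synthetase or scaffold gene and a gene on the opposite strand that shares exonic bases with it, by Nanopore on the left and by Illumina, in units of 1000 counts, on the right. ENSG00000251556 opposite LARS1, ENSG00000258666 opposite WARS1, DDIT3 opposite MARS1 and WDR55 opposite HARS1 have 20 to 40 Nanopore counts, close to those of the member, and the first 2 have almost no visible Illumina bar.

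HARS1 and HARS2, sister genes for the cytosolic and the mitochondrial histidyl enzyme, start head to head on chromosome 5, and the annotation lets 108 bases belong to both. HARS1 was at 99.2 CPM by Nanopore (70.9 to 135) and HARS2 at 34.7 CPM (19 to 58.3), and 34 of the 2419 words of HARS2 occur in HARS1, on the opposite strand. HARS2 also shares 152 exonic bases on the same strand with ZMAT2, its neighbour, which had 41 Nanopore and 31373 Illumina counts. SARS2 shares more sequence with a counted gene than any other of the 37 does: 77.0% of its 50-base words occur on the same strand in ENSG00000269547, a protein-coding gene that shares 15360 bases of its body. That gene had 18 Nanopore and 3989 Illumina counts, beside 7 and 5590 for SARS2.

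Genes that work beside the synthetases were looked at through a list of 13 genes of tRNA charging, which includes EEF1E1, the third scaffold of the complex. All 13 were detected by Nanopore and tested. None was at least 2-fold higher by Nanopore and 3 were at least 2-fold higher by Illumina, namely AARSD1, DTD2 and XPOT, where 19.2% and 30.2% of all genes tested were. DTD2 had 3 Nanopore counts, and the interval of its 2.54-fold difference held 1 (0.868 to 12.3). The median log2 ratio of the list was −0.24. XPOT, the exporter of tRNA from the nucleus, was at 71.9 CPM by Nanopore and 146 CPM by Illumina. EEF1E1 had 23 Nanopore counts, 57.0 CPM, against 57.1 CPM by Illumina, so the 3 scaffolds had ratios of 0.999 (0.633 to 1.5) for EEF1E1, 0.776 for AIMP1 and 1.48 for AIMP2. GATC, GATB and QRSL1 form the amidotransferase that makes mitochondrial glutaminyl-tRNA from the product of EARS2. They had 53, 8 and 10 Nanopore counts, and EARS2 had 6.

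A list of 20 genes of the amino acid response was taken as the pathway that many synthetase genes answer to. Of its 18 genes tested, 3 were at least 2-fold higher by Nanopore (ATF3, DDIT3 and CEBPB) and 5 at least 2-fold higher by Illumina (EIF2AK4, GCN1, PHGDH, SHMT2 and ALDH18A1), with a median log2 ratio of −0.33. Both counts are near the 19.2% and 30.2% of all genes tested. ATF3 had only 3 Nanopore counts (7.44 CPM) and 2.91 CPM by Illumina. It therefore reached the mean of 5 CPM only through its Nanopore level, and its ratio of 2.56 had an interval that held 1 (0.526 to 7.51). ATF4 had 88 Nanopore counts, 218 CPM, more than any of the 37 genes, and 399 TPM by Illumina. EIF2AK4, the kinase GCN2 that senses uncharged tRNA, had 8 Nanopore counts and 16.1 TPM, and its partner GCN1 had 14 counts and 28.6 TPM. ASNS, the asparagine synthetase gene, had 5 counts and 16.4 TPM. TRIB3 had 7 counts and 21.2 TPM, and CHAC1 had 0 Nanopore counts, where the limit taken as 3 counts is 7.44 CPM, and 0.766 TPM. Levels in untreated cells were not analysed here, so these values describe the tamoxifen-treated state alone. The core TGATGNAA was present in the windows of 4 of the 16 genes of this list that had one. That is a count of genes, and the share over all genes was not computed. The 3.62% given for all windows is a share of windows, and a gene can have several.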

How the data were processed

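The authors deposited raw whole-number counts per gene for 1 Nanopore direct RNA and 1 Illumina library. Per the submitters' processing notes, hg38, minimap2 2.11-r797, HISAT2 2.1.0 and featureCounts were used. Counting options, annotation release, strand setting and the treatment of reads over several genes are not given in the sources used here, and per the file headers the Nanopore column carries a suffix that no label explains.

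Names, positions and lengths came from GENCODE release 44 (GRCh38/hg38), which held 58207 of the 58735 identifiers. The 528 others, with 0.396% of Nanopore and 0.172% of Illumina counts, had no length and were left out of TPM. Canonical transcripts were aligned to alternate contigs with minimap2 2.31. With 1 library per platform no replicate model was fitted. Ratios used a pseudocount of 1 CPM, and the exact binomial test (scipy 1.17.1) compares these 2 libraries, not the platforms. The test was run on simulated counts that held counting error and set changes alone. That check therefore cannot speak for other spread between the real libraries. Intervals are 95% Clopper-Pearson and cover counting error only, since amplified reads are not independent molecules. TMM came from edgeR 4.0.16. Alternatives were pseudocounts, filters, scalings, lengths and subsets of genes. All 37 members could be named, with overlapping genes and 2 pathway lists. The members and lists were chosen with earlier results of these data known. No list or per-length value was tested. One marker gene of the basal list is not reported here.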

Additional observations from a re-analysis of the deposited data

How the results depend on the processing

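Direction of the median ratio, in CPM and per length, was the same under every alternative tried. Other filters, pseudocounts and scalings gave 19 to 23 members at least 2-fold higher by Illumina in CPM. TMM raised Nanopore ratios by 0.088 and median-ratio scaling by 0.13 on the log2 scale. Restricting to genes whose body shares no base with another gene left 7 members tested, 5 of them at least 2-fold higher by Illumina and 0 higher by Nanopore in CPM, and 0 and 0 per length. The per-length count higher by Nanopore was 1 with a pseudocount of 5 and 1 at a mean of at least 20 CPM. It was 7 with union exonic length, and neither YARS2 nor MARS2 was among those 7. The per-length count higher by Illumina was 14 with mean transcript length. The cause of these changes was not tested. At 10 counts, 23 members were detected by Nanopore. The Illumina log2 difference between cytosolic and mitochondrial medians was 3.17 without overlapping genes, where few genes remained. Spearman's rho of the CPM ratio with length was −0.344 with union exonic length, −0.258 with mean transcript length and −0.786 without overlapping genes. For the per-length ratio it was 0.570, 0.606 and 0.714 in the same order, and 0.379 without genes with an alternate copy. The per-length log2 ratio of NARS2 changed from −1.34 to 0.38 with union exonic length, which is 16377 bases for that gene against 2512 for its canonical transcript. Several other members crossed 0 with that length, in either direction. Among them, RARS2 went from −0.26 to 1.72, GARS1 from −0.59 to 1.40, HARS1 from −0.66 to 1.37 and CARS2 from −0.28 to 1.37. IARS2 (0.10 to −0.47), EPRS1 (0.24 to −0.43) and FARSB (0.48 to −0.29) crossed it downward. For these genes the direction per length depended on the length used. Exact binomial adjusted p-values (Benjamini-Hochberg) rose above the threshold for FARSA (0.0677 with TMM, 0.0909 with median-ratio scaling, 0.133 with no filter), AARS2 (0.0561 with median-ratio scaling, 0.127 with no filter) and AIMP2 (0.0522 at a mean of at least 1 CPM, 0.183 with no filter). No paired analysis was possible because each platform has 1 library. Depth limits most the 14 members with under 10 Nanopore counts.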

Other observations

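Besides HARS2, 5 mitochondrial synthetase genes start within 1000 bases of the start of a protein-coding gene on the opposite strand. Such starts are not particular to the mitochondrial genes. Besides HARS1, AARS1 starts 44 bases from DDX19B, AIMP2 125 from PMS2, WARS1 387 from WDR25 and KARS1 870 from TERF2IP. The share of all genes with such a neighbour was not computed. The 5 mitochondrial genes were singled out after their values were seen, and the counts of both genes are given as values. The start of SARS2 lies 181 bases from that of MRPS12, a gene of the mitochondrial ribosome. SARS2 had 7 Nanopore and 5590 Illumina counts, and MRPS12 had 17 and 12874. FARS2, the mitochondrial phenylalanyl gene, starts 94 bases from LYRM4, a gene of iron-sulfur cluster assembly. FARS2 had 3 and 3805 counts, and LYRM4 had 12 and 6538. RARS2 starts 39 bases from ORC3, a gene of the origin recognition complex. RARS2 had 8 and 6636 counts, and ORC3 had 11 and 6492. EARS2 starts 10 bases from UBFD1, with 6 and 8580 counts for EARS2 and 8 and 10194 for UBFD1. CARS2 starts 867 bases from ING1, with 20 and 13752 counts for CARS2 and 7 and 3195 for ING1. The intervals of these small Nanopore counts are wide, and no test was run.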
